A study of Mus musculus with 4 samples.

Results

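Respiratory complexes III, IV and V of the inner mitochondrial membrane are built from many subunits, most of them encoded in the nucleus. Nuclear subunit genes of these complexes were taken as all protein-coding rows of the deposited table whose symbol begins with Uqcr, with Atp5, or with Cox and a digit from 4 to 8, together with Cyc1 and Cycs. The rule uses names alone and found 43 genes among 14936 listed genes, 13059 of them protein coding. They comprise 9 genes of complex III, 16 of complex IV, 17 counted with complex V by prefix, and Cycs, which encodes cytochrome c.

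The samples were whole hearts from 4 mouse embryos of stage E18.5, C57BL/6 in background and each homozygous for a floxed Adar1 allele. KO embryos 51 and 54 also carried 1 Nkx2.5-Cre allele (Cre/WT). WT embryos 47 and 50 carried none (WT/WT) and so differed from true wild types by their floxed Adar1 alleles. Adar1, listed as Adar, edits adenosine to inosine in double-stranded RNA, and Nkx2.5-Cre places a DNA recombinase under the control of an early heart gene. The recombinase is expressed in cardiac progenitors and cardiomyocytes and not in every cell of a whole heart. Since every KO embryo and no WT embryo carried the Nkx2.5-Cre allele, effects of this allele, Cre itself and targeting Adar1 cannot be told apart.

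Complex III passes electrons from ubiquinol to cytochrome c, complex IV passes them on to oxygen, and both move protons out of the matrix. Complex V, the ATP synthase, lets protons flow back through its membrane part and makes ATP in its matrix part. The adult heart gets most of its ATP this way, and around birth the heart shifts from glycolysis towards this route. Several subunits of complex IV exist as a form found in many tissues and a form restricted to heart and skeletal muscle.

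Values are CPM, read counts that the authors scaled to a common library size, and within a group the lower embryo number comes first. Reads of listed genes numbered 8593443 and 8444488 in the KO libraries, against 8998872 and 7457103 in the WT libraries, so 1 read was worth 0.109 to 0.138 CPM. Adar itself averaged 204 ± 13.03 CPM in KO hearts and 33.0 ± 3.85 CPM in WT hearts (SD, n = 2 each), a log2 fold change of 2.60. The gene total was thus higher in the libraries labelled KO, and it does not check the deletion, since the labels do not name the floxed exons. Nkx2-5, the cardiac transcription factor gene whose locus names the Cre allele, averaged 81.0 ± 16.7 CPM in KO hearts and 147 ± 5.39 CPM in WT hearts (SD, n = 2 each), with a log2 fold change of -0.86 and a limma adjusted p of 0.0080.

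Start regions of these genes are shown because genes of the respiratory chain are known to share binding sequences for a small group of transcription factors in their promoters. NRF1, GABP, the oestrogen-related receptors (ERR) and YY1 are factors with known roles at such promoters. Of the 43 genes, 34 had an entry in the RefSeq promoter table (build GRCm38.p6), which covers 250 bases before and 50 bases after the annotated start. Entries were not found for Uqcrb, Uqcrc2, Cyc1, Uqcrq, Cox6c, Cox4i1, Cox4i2, Cox6a2 and Atp5a1. The sequences run 5′ to 3′ over the 250 bases before the start and all lie on the minus strand. For each complex, the gene shown is the one with the most negative fold change among those that fell and that hold a motif in these bases. Atp5g3 was added as the gene with the ERR motif, and capitals mark the motif letters.

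Uqcrh: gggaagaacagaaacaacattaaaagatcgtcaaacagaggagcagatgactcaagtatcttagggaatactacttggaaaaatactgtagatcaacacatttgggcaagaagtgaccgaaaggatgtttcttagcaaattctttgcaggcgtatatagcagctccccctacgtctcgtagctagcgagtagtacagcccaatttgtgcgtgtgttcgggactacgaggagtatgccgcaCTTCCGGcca
Cox6b1: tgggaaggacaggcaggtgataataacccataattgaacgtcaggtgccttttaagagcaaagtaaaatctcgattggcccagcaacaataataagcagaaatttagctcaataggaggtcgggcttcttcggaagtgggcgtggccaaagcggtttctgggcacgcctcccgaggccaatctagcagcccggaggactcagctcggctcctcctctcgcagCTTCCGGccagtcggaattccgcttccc
Atp5k: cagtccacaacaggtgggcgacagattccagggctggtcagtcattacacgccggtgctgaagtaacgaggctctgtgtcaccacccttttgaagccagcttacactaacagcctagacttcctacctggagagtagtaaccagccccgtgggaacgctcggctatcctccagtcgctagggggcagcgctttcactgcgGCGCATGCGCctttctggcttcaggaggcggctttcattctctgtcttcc
Atp5g3: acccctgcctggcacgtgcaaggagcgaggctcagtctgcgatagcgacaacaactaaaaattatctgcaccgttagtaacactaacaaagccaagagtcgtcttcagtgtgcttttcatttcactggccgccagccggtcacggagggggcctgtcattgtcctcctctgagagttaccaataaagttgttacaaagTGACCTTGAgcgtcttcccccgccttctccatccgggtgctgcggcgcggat

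The Uqcrh bases lie at chr4:116075071-116075320, and CTTCCGG, the reverse complement of the GABP letters, stands at positions -10 to -4 from the start. The Cox6b1 bases lie at chr7:30626115-30626364 and hold the same letters at -28 to -22 from the RefSeq start. In the GENCODE M21 annotation Cox6b1 starts further upstream, at 30626151, so these letters lie inside the gene there. The Atp5k bases lie at chr5:108434400-108434649 with an NRF1 match, GCGCATGCGC, at -50 to -41. GENCODE M21 also places the Atp5k start further upstream, at 108434448, within this match. The Atp5g3 bases lie at chr2:73911327-73911576 with TGACCTTGA, the reverse complement of the ERR letters, at -52 to -44.

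Over the whole 300-base windows and on both strands, the GABP letters CCGGAAG occurred in 10 of the 34 genes (29.4%), against 19.4% of 10294 tested coding genes and 9.93% of 27025 genes in the table. The NRF1 letters, GCGCA and GCGC with 1 base of any kind between them, occurred in 8 genes (23.5%), against 11.2% of tested coding genes and 5.19% of all genes. YY1 letters, AAGATGGCG, were found in 3 genes (8.82%), against 3.43% of tested coding genes and 1.64% of all. The ERR letters TCAAGGTCA were found in Atp5g3 alone (2.94%), against 0.291% of tested coding genes and 0.466% of all. In all, 17 of the 34 genes held at least 1 of these motifs, and Atp5k, Atp5h and Cox6a1 held both the NRF1 and the GABP letters. Matches to different motifs were counted separately, and a gene with both counts under both. A match describes letters and does not show binding, and a window without a match shows only that these letters are not in it.

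The nuclear subunit genes were lower in KO hearts as a group. All 43 were tested, 38 fell, none rose, and 5 did not pass the threshold, an adjusted p of 0.05 in a limma fit over 14869 genes. Over all tested genes 14.2% fell and 17.8% rose by the same rule. The median log2 fold change of KO over WT was -0.97 over the 43 genes, against -0.01 over all genes tested, and all 43 values were negative. The summed level was 9928 and 14096 CPM in KO hearts, against 22860 and 23279 CPM in WT hearts. This sum was 1.06% and 1.41% of the listed CPM in KO hearts, against 2.21% and 2.26% in WT hearts. Both KO values lay below both WT values for 41 of the 43 genes, against 36.3% of all tested genes. In whole hearts, fewer cells rich in mitochondria and less of each transcript per cell cannot be told apart.

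All calls of the subunit genes were lost when either WT library was left out. Such a fit holds 1 WT heart, and its spread within groups comes from the KO hearts alone. The fold changes of all 43 genes stayed negative without WT embryo 47, as did 42 without WT embryo 50. The median fold change was -1.08 without WT embryo 47 and -0.96 without WT embryo 50. The median was -0.73 without KO embryo 51 and -1.22 without KO embryo 54. A fit with 1 KO heart holds no spread between KO hearts. On reads recovered from the CPM steps, 37 fell with edgeR (13.3% of all genes) and 38 with DESeq2 (10.5% of all genes). With limma, 40 fell under upper-quartile scaling (19.9% of all genes), 39 under TMM scaling (14.0%), 39 under quantile normalization (18.4%) and 31 without the variance trend (10.5%). The authors' deposited table puts 37 of the 43 at an FDR under 0.05, all with a negative fold change there. Over all listed genes 30.9% passed in either direction and 13.4% with a negative fold change.

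KO embryo 51 was the lower of the 2 KO hearts for 41 of the 43 genes, Cox4i2 and Cox6b2 being the exceptions, whereas it was lower for 7793 of all 14869 tested genes. Taking each gene's WT mean as the reference, the median level was 42.5% in KO embryo 51 and 60.0% in KO embryo 54. Of the WT hearts, embryo 47 was below embryo 50 for 32 of the 43 genes.

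**Figure D1:**
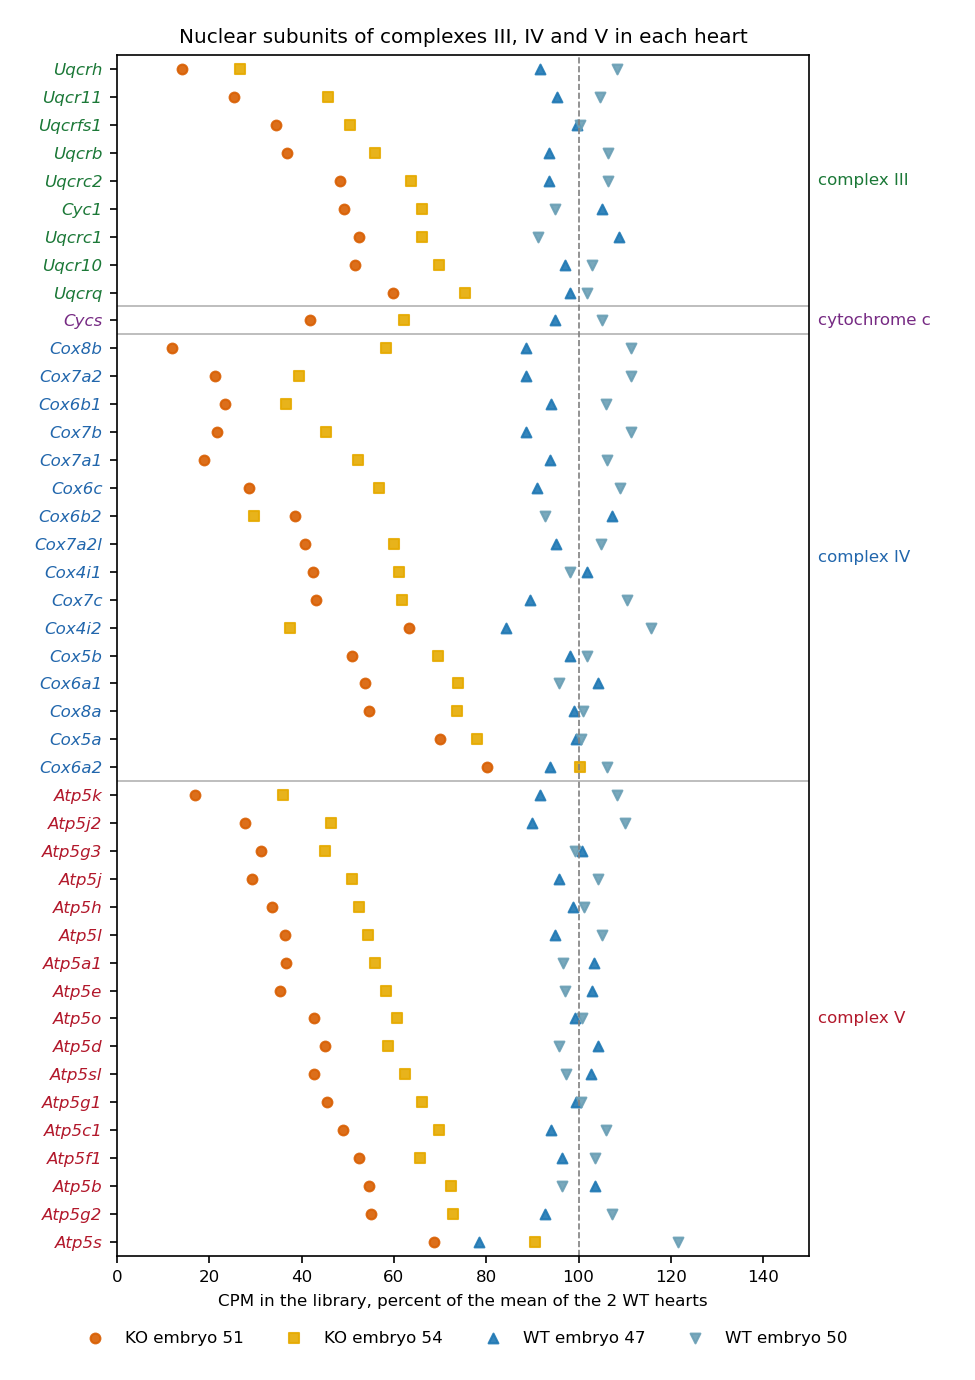
Level of each of the 43 genes in each library as a percent of the mean CPM of the WT hearts (horizontal axis, dashed line at 100%), with genes grouped by complex and 1 point for each of KO embryos 51 and 54 and WT embryos 47 and 50. KO points lie below WT points for 41 genes, and the KO and WT points of Cox6a2 and Atp5s overlap.

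All 9 complex III genes fell, and their median log2 fold change was -0.85, with KO values below WT values throughout. Summed, they reached 1572 and 2165.7 CPM in KO hearts, against 3684 and 3778 CPM in WT hearts. The fall was steepest for Uqcrh, the acidic hinge protein that helps cytochrome c1 meet cytochrome c, at 58.4 and 110.0 CPM in KO hearts and 379 and 448 CPM in WT hearts. Its KO mean was 20.4% of its WT mean, for a log2 fold change of -2.35 (SE 0.27) and a limma adjusted p of 0.00143. It was the most negative value of all 43 genes, and the higher KO heart was still far below the lower WT heart.

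Uqcr11, a small subunit at the edge of the complex, had 59.1 and 106 CPM in KO hearts and 222 and 243 CPM in WT hearts (log2 fold change -1.54, SE 0.25, limma adjusted p 0.00537). Uqcrfs1, the Rieske iron-sulphur protein that takes the first electron from ubiquinol, had 169 and 247 CPM in KO hearts and 488 and 491 CPM in WT hearts (-1.26, SE 0.19, adjusted p 0.00424). In both genes the KO hearts differed from each other more than the WT hearts did, and the groups were well apart.

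Cyc1 encodes cytochrome c1, the haem protein that hands electrons to cytochrome c. It measured 285 and 384 CPM in KO hearts and 609.5 and 551 CPM in WT hearts, with a log2 fold change of -0.81 (SE 0.18, limma adjusted p 0.0159). Cycs, the mobile carrier between complexes III and IV, measured 187 and 278 CPM in KO hearts and 423 and 469 CPM in WT hearts (-0.97, SE 0.20, adjusted p 0.0123). Carrier and docking subunit were thus both lower, with no overlap between groups.

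The core proteins showed middling changes. Uqcrc1 and Uqcrc2 form the large matrix part of the complex, with log2 fold changes of -0.76 and -0.85, and the ubiquinone-binding Uqcrb had -1.13. Uqcrq, another small ubiquinone-binding subunit, had the mildest change of the complex, at 160.0 and 201 CPM in KO hearts and 262 and 272 CPM in WT hearts (-0.57, SE 0.15, adjusted p 0.0248). Its fall was lost when the trend of fold change with transcript length was removed (adjusted p 0.066). Uqcr10, a small subunit beside cytochrome c1, stood at -0.73.

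**Figure D2:**
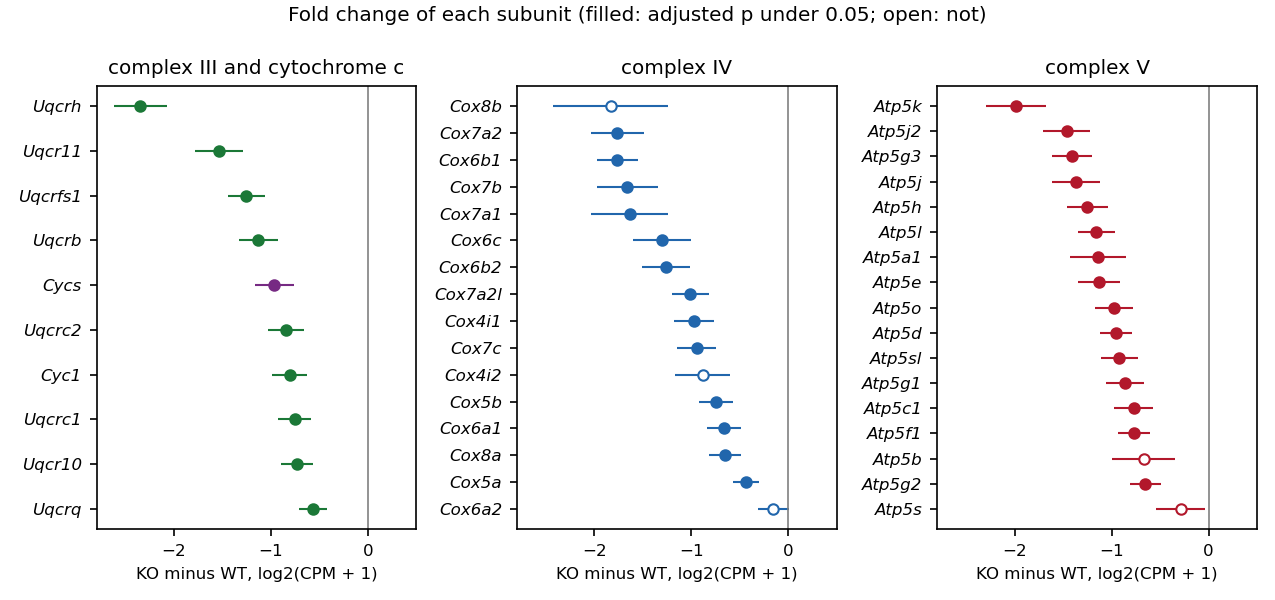
Log2 fold change of KO over WT for each of the 43 genes with its limma standard error as a bar, by complex, filled where the gene passed the adjusted threshold and open where it did not. All values lie below 0, Uqcrh lies lowest at -2.35 and Cox6a2 nearest to 0 at -0.15.

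Of 16 complex IV genes 13 fell, and Cox8b, Cox4i2 and Cox6a2 did not pass. The median log2 fold change was -0.99, and the sum was 2332 and 3395 CPM in KO hearts, against 5218 and 5686 CPM in WT hearts. Among genes that fell, Cox7a2, the form of subunit VIIa found in many tissues, had the most negative value, at 68.4 and 127 CPM in KO hearts and 285 and 358 CPM in WT hearts (log2 fold change -1.77, SE 0.27, limma adjusted p 0.00451). Cox6b1 sits on the side where cytochrome c docks and had 105 and 166 CPM in KO hearts, against 426 and 479 CPM in WT hearts (-1.76, SE 0.21, adjusted p 0.00171). Both had KO means at about the same share of WT, 30.4% for Cox7a2 and 30.01% for Cox6b1.

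Other subunits present in most tissues fell to different degrees. Cox7b, a small membrane subunit, was at -1.66, Cox6c at -1.30, Cox7c at -0.94 and Cox5b, which binds zinc, at -0.75. Cox4i1, the large regulatory subunit IV, had 393 and 564 CPM in KO hearts and 941 and 907 CPM in WT hearts (-0.97, SE 0.21, adjusted p 0.0134). The mildest fall was that of Cox5a, a matrix-side subunit, at 268 and 298 CPM in KO hearts and 379.9 and 385 CPM in WT hearts (-0.43, SE 0.13, adjusted p 0.0424). The Cox5a call rested near the threshold and was lost in edgeR (adjusted p 0.055) and in the authors' deposited table (FDR 0.058).

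Cox7a2l encodes a relative of subunit VIIa that joins complexes III and IV into supercomplexes, and the C57BL/6 strain carries a short form of its protein. It had 92.0 and 136 CPM in KO hearts and 215 and 237 CPM in WT hearts (-1.01, SE 0.19, limma adjusted p 0.0088). Cox6b2, the testis form of subunit VIb, was near the low end of the table, at 2.94 and 2.26 CPM in KO hearts and 8.16 and 7.05 CPM in WT hearts (-1.26, SE 0.25, adjusted p 0.0104). Its lowest value was in KO embryo 54, and all 4 values rest on few reads.

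The heart and muscle forms of complex IV did not move together. Cox6a2, the muscle form of subunit VIa, had 307 and 383 CPM in KO hearts and 358 and 406 CPM in WT hearts (-0.15, SE 0.16, adjusted p 0.486). KO embryo 54 lay between the WT hearts, at 100.3% of the WT mean, and KO embryo 51 was at 80.2%. Cox7a1, the muscle form of VIIa, had 19.3 and 53.5 CPM in KO hearts and 96.1 and 109 CPM in WT hearts (-1.64, SE 0.40, adjusted p 0.0215), a fall that DESeq2 did not call (adjusted p 0.093). Cox8b, the muscle form of VIII, had 7.62 and 37.3 CPM in KO hearts and 56.8 and 71.2 CPM in WT hearts, with no overlap. Its log2 fold change of -1.83 (SE 0.59) missed the threshold at an adjusted p of 0.0523, and KO embryo 51 set much of its size, since the value was -0.76 without that embryo and -2.91 without KO embryo 54. Both of those fits passed the threshold, but with 1 KO heart each they hold no spread between KO hearts.

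The forms of subunits VIa and VIII found in many tissues both fell. Cox6a1 had 203 and 279.9 CPM in KO hearts and 395 and 362 CPM in WT hearts (-0.66, SE 0.18, limma adjusted p 0.0280). Cox8a had 207 and 279 CPM in KO hearts and 374 and 383 CPM in WT hearts (-0.65, SE 0.17, adjusted p 0.0253). Cox4i2, a form of subunit IV best known from lung and low oxygen, had 6.20 and 3.68 CPM in KO hearts and 8.28 and 11.3 CPM in WT hearts (-0.88, SE 0.29, adjusted p 0.0531), without overlap but short of the threshold. It passed in limma with upper-quartile scaling (adjusted p 0.037) and quantile normalization (adjusted p 0.039).

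Ratios of 2 forms within a library need no scaling between libraries, although 2 against 2 hearts cannot give an exact two-sided permutation p below 0.333. The log2 ratio of Cox6a2 to Cox6a1 was 0.59 and 0.45 in KO hearts, against -0.14 and 0.16 in WT hearts, so the muscle form weighed more in both KO hearts (difference 0.51, exact permutation p 0.333). Per kilobase of transcript, Cox6a2 made up 54.5% of the pair in KO hearts and 45.9% in WT hearts. Cox8b to Cox8a stood at -4.59 and -2.87 in KO hearts, against -2.70 and -2.41 in WT hearts, so here the muscle form weighed less in both (difference -1.18, exact permutation p 0.333). The difference was -0.32 without KO embryo 51 and -2.04 without KO embryo 54.

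Cox7a1 to Cox7a2 overlapped between groups, at -1.78 and -1.23 in KO hearts and -1.56 and -1.71 in WT hearts (difference 0.13, exact permutation p 1.0). Cox4i2 to Cox4i1 overlapped too, at -5.77 and -6.92 in KO hearts and -6.67 and -6.20 in WT hearts (difference 0.09, exact permutation p 1.0). Both of these differences change sign when 1 library is left out, spanning -0.14 to 0.40 for Cox7a1 and -0.48 to 0.66 for Cox4i2.

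The c subunit of ATP synthase, which forms the rotating ring in the membrane, is encoded by 3 genes that give the same mature protein. Atp5g3 had 338 and 488 CPM in KO hearts and 1089.5 and 1074 CPM in WT hearts (log2 fold change -1.41, SE 0.21, limma adjusted p 0.00364). Atp5g1 had 270.1 and 392 CPM in KO hearts and 591 and 597 CPM in WT hearts (-0.87, SE 0.20, adjusted p 0.0166). Atp5g2 had 111 and 146 CPM in KO hearts and 187 and 216 CPM in WT hearts (-0.65, SE 0.16, adjusted p 0.0233). All 3 fell, and the one with the highest level in WT hearts had the most negative value.

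Relative to Atp5g3, the log2 ratio of Atp5g1 was -0.32 and -0.31 in KO hearts, against -0.88 and -0.85 in WT hearts (difference 0.55, exact permutation p 0.333). For Atp5g2 it was -1.60 and -1.73 in KO hearts, against -2.54 and -2.31 in WT hearts (difference 0.76, exact permutation p 0.333). Both ratios were higher in each KO heart than in each WT heart, and the differences stayed between 0.53 and 0.87 when any 1 library was left out.

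**Figure D3:**
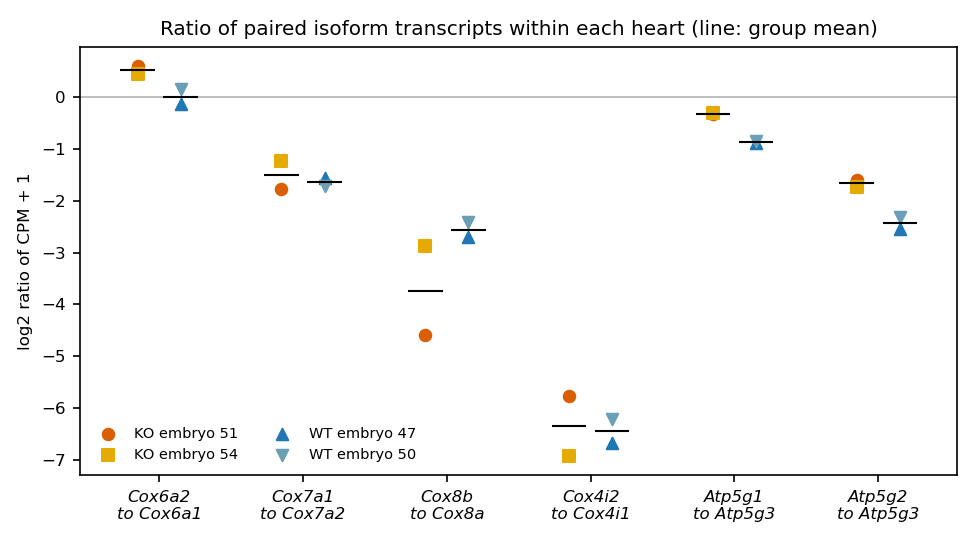
Log2 ratio of CPM + 1 between 2 forms of a subunit in each library, for 6 pairs, with KO hearts left of WT hearts in each pair. The KO points lie above the WT points for Cox6a2 to Cox6a1 and for the Atp5g pairs, and below them for Cox8b to Cox8a. For Cox7a1 to Cox7a2 and Cox4i2 to Cox4i1 the KO points lie on either side of the WT points.

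Complex V was counted by prefix, with Atp5s and Atp5sl included although they are not core subunits. Of its 17 genes 15 fell, Atp5b and Atp5s did not pass, and the median log2 fold change was -0.97. Their sum was 5838 and 8257 CPM in KO hearts, against 13535 and 13345 CPM in WT hearts. The most negative value belonged to Atp5k, subunit e, which holds ATP synthase dimers together, at 27.7 and 59.4 CPM in KO hearts and 151 and 178 CPM in WT hearts (-1.99, SE 0.31, limma adjusted p 0.00471). Atp5j2, subunit f of the membrane part, had 118 and 197 CPM in KO hearts and 381 and 466 CPM in WT hearts (-1.46, SE 0.24, adjusted p 0.00571). Subunit g, Atp5l, lies beside subunit e in the dimer interface and was at -1.16. These membrane subunits were thus lower in every KO heart than in any WT heart.

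The peripheral stalk keeps the catalytic head from turning. Its genes Atp5j, for coupling factor F6, Atp5h, for subunit d, Atp5o, for the subunit that joins stalk and head, and Atp5f1, for subunit b, stood at -1.37, -1.25, -0.97 and -0.77 on the log2 scale. All 4 fell. The central stalk genes Atp5c1, Atp5d and Atp5e, for subunits gamma, delta and epsilon, also fell, at -0.77, -0.95 and -1.13.

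The head itself is made of alternating alpha and beta subunits. Atp5a1, for alpha, had 1075 and 1639 CPM in KO hearts and 3035 and 2834 CPM in WT hearts (log2 fold change -1.14, SE 0.29, limma adjusted p 0.0246). Atp5b, for the catalytic beta subunit, had 2190.2 and 2897 CPM in KO hearts and 4151 and 3859 CPM in WT hearts (-0.67, SE 0.32, adjusted p 0.152). The Atp5b groups did not overlap, with a KO mean at 63.5% of the WT mean, but the limma threshold was not met. DESeq2 on recovered reads gave Atp5b an adjusted p of 0.0031. The limma fold change was -0.87 without KO embryo 54, and quantile normalization turned it to 0.14 (adjusted p 0.739). Quantile normalization also ended the Atp5a1 call (adjusted p 0.132).

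A pair of genes share the prefix without being core subunits. Atp5s encodes coupling factor B and had 11.1 and 14.6 CPM in KO hearts and 12.6 and 19.6 CPM in WT hearts, which overlap (-0.29, SE 0.25, adjusted p 0.398). Atp5sl, named Dmac2 in the GENCODE M21 annotation and known as an assembly factor of complex I, had 19.3 and 28.1 CPM in KO hearts and 46.2 and 43.8 CPM in WT hearts (-0.92, SE 0.19, adjusted p 0.0122).

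Per kilobase of transcript, the highest level in WT hearts was that of Atp5b, at 1327 CPM per kb in KO hearts and 2090.4 CPM per kb in WT hearts. Next in WT order came Atp5g3, at 575 CPM per kb in KO hearts and 1506 CPM per kb in WT hearts, and Cox4i1, at 634 CPM per kb in KO hearts and 1224 CPM per kb in WT hearts. Cox4i1 and Atp5g3 thus stood in the opposite order in KO hearts. The lowest in WT hearts was Atp5s, at 8.33 CPM per kb in KO hearts and 10.5 CPM per kb in WT hearts. The lowest in KO hearts was Cox6b2, at 5.97 CPM per kb in KO hearts and 17.5 CPM per kb in WT hearts.

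Transcripts of these subunits are short, with a median of 718.5 bases against 2580.5 bases over all tested genes, and fold changes moved with length. Across the 43 genes the Spearman correlation of transcript length and log2 fold change was 0.34, and across 14849 genes it was 0.16, with genes of 1 library set not being independent. It differed by list, at 0.27 in 16 complex IV genes, 0.51 in 17 complex V genes and 0.04 in 37 complex I genes. Members of each length class had a lower median than all genes of that class. Among transcripts under 500 bases, the 9 members had a median log2 fold change of -1.64 and 88.9% fell, against a median of -0.17 and 17.7% for all 395 genes of that size. Among those of 500 to 1000 bases, the 20 members had a median of -0.96 and 90.0% fell, against -0.21 and 22.6% for 1454 genes. Among those of 1000 to 2000 bases, the 11 members had a median of -0.81 and 81.8% fell, against -0.11 and 17.7% for 3547 genes. The 3 members over 2000 bases all fell, at a median of -0.97, against 0.06 and 11.4% for 9453 genes.

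With the length trend removed from each library, 32 of the 43 genes fell (13.5% of all genes) at a median of -0.86, and Atp5c1, Atp5g2, Cox5a, Cox6a1, Cox8a and Uqcrq no longer passed. Cytosolic ribosomal protein genes are also short, at a median of 771 bases, and also highly expressed. Among 75 tested, 16 fell (21.3%) and none rose, at a median of -0.28, against 14.2% that fell over all genes. Under upper-quartile scaling 28 fell (19.9% of all genes), and without the variance trend 10 fell (10.5% of all genes). With the length trend removed 7 fell, against 13.5% of all genes, and the falls were lost without either WT library. All 75 had an embryo 47 value below that of embryo 50, whereas 25 of 75 were lower in KO embryo 51 than in KO embryo 54. RNA quality values were not used here, and the part of transcript length or RNA integrity in the falls was not tested further.

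**Figure D4:**
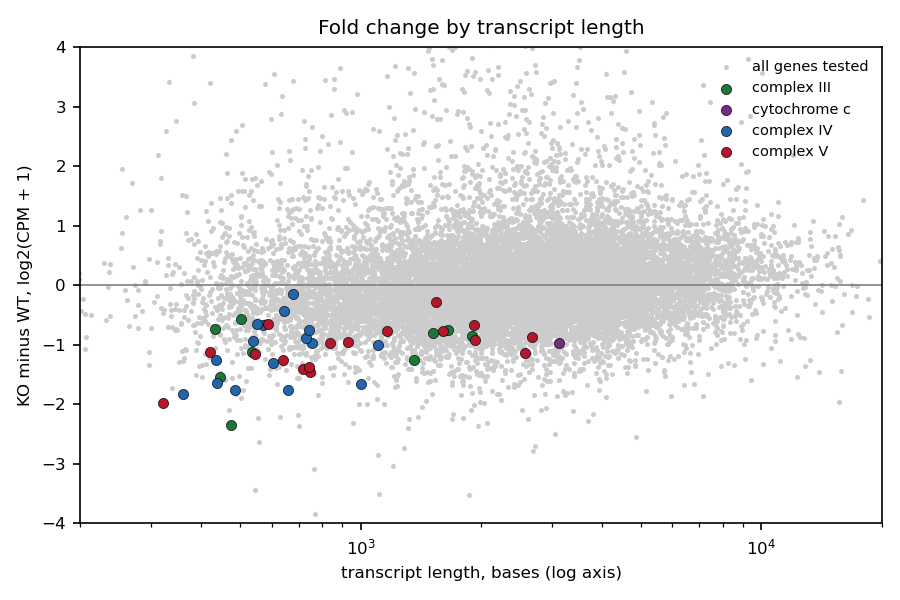
Log2 fold change of KO over WT against transcript length in bases on a log axis, for all tested genes (grey) and the 43 subunit genes (coloured by complex). All 43 lie below 0, those under 500 bases at a median of -1.64, and 182 genes lie outside the plotted range.

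The partner subunits made in the mitochondrion could be read for a pair of genes. Cytochrome b of complex III, mt-Cytb, had 1343 and 4736 CPM in KO hearts, against 9948 and 10228 CPM in WT hearts (-2.0, SE 0.62, limma adjusted p 0.0463). That fall was lost in edgeR, under quantile normalization, with the length trend removed, and without KO embryo 51 or either WT library. The catalytic subunit of complex IV, mt-Co1, had 9524 and 18306 CPM in KO hearts, against 22457 and 26975 CPM in WT hearts (-0.90, SE 0.86, adjusted p 0.444). The other listed partners, mt-Co2, mt-Co3 and mt-Atp6, stood at 3.91 CPM or less in every library. Near-identical nuclear copies of such genes on chromosome 1 hold between 0.762 and 8.71 CPM over 5 listed pseudogenes, so levels of these partners are uncertain.

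Of 24 tested genes linked to complex IV assembly 5 fell and 1 rose, at a median log2 fold change of -0.31. The share that fell, 20.8%, was near the 14.2% of all genes. With upper-quartile scaling or quantile normalization 8 of them fell, against 19.9% and 18.4% of all genes, and without KO embryo 54 9 fell, against 2750 of all 14869 genes. Cox18, an insertase that places part of mt-Co2 across the membrane, had 33.2 and 30.2 CPM in KO hearts and 10.7 and 7.05 CPM in WT hearts (1.75, SE 0.22, limma adjusted p 0.00183). It was called higher under each of the 16 alternative settings, the loss of either WT library included. Ndufa4, long counted as a complex I subunit and now placed with complex IV, had 106 and 187 CPM in KO hearts and 398 and 454 CPM in WT hearts (-1.59, adjusted p 0.0048). Cmc2, needed to build complex IV, had -1.38, and Higd1a, a hypoxia-induced partner of complex IV, had -0.51.

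For complex III assembly 2 of 7 fell, Uqcc1 at -0.64 and Uqcc2 at -0.55, which help in making cytochrome b. Over all genes 14.2% fell. Of the 7, 1 fell without the variance trend (10.5% of all genes) and 1 with the length trend removed (13.5% of all genes). For genes of complex V assembly and its small companions 6 of 9 fell (66.7%, against 14.2% of all genes), 1 of them Atp5sl. The largest fall was that of 2010107E04Rik, a small proteolipid bound to ATP synthase, with 44.0 and 86.8 CPM in KO hearts and 193 and 257 CPM in WT hearts (-1.83, limma adjusted p 0.0055). Usmg5, which helps ATP synthase form dimers, stood at -1.22, and Atpif1, the inhibitor of ATP hydrolysis by complex V, at -0.74.

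Genes of the complexes that feed electrons into the chain were lower as well. Of 37 complex I genes, with Ndufa4 counted again by its name, 36 fell, at a median log2 fold change of -0.92. All 4 complex II genes fell, at a median of -1.30, against 14.2% that fell over all genes. Sdhd, which anchors complex II in the membrane, had 127 and 178 CPM in KO hearts and 418 and 457 CPM in WT hearts (-1.53, limma adjusted p 0.00143). Among 6 carriers and channels, Vdac1, the main pore of the outer membrane, fell at -1.08 and Slc25a4, the ADP/ATP carrier of heart and muscle, fell at -1.13. Its relative of other tissues, Slc25a5, had 507 and 509 CPM in KO hearts and 605 and 611 CPM in WT hearts (-0.26, adjusted p 0.20). As with the subunits, the falls of assembly genes, carriers and complexes I and II were lost without either WT library, except for 1 complex I gene in each case.

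Of 22 known regulators of mitochondrial genes 4 fell (18.2%) and 5 rose, at a median of 0.23, against 14.2% that fell and 17.8% that rose over all genes, so their counts were near the background. Ppargc1a, the coactivator that drives mitochondrial biogenesis, had 248.9 and 371 CPM in KO hearts and 158 and 135 CPM in WT hearts (1.05, SE 0.20, limma adjusted p 0.00926). Pprc1, a related coactivator, had 94.5 and 93.2 CPM in KO hearts and 33.9 and 41.6 CPM in WT hearts (1.30, SE 0.14, adjusted p 0.00093), and its call held without either WT library. Esrrg, an oestrogen-related receptor of the heart, rose at 0.85. Esrra, its relative, had 69.1 and 92.2 CPM in KO hearts and 114 and 111 CPM in WT hearts (-0.49, adjusted p 0.0491), and Gabpa, for the DNA-binding subunit of GABP, fell at -0.45. Thra, the thyroid hormone receptor of the heart, fell at -0.67. The regulator counts were 1 fall and 6 rises without KO embryo 51, and 0 falls and 1 rise without either WT library. With upper-quartile scaling, quantile normalization or no variance trend 3 regulators rose, and without the trend 1 fell.

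**Figure D5:**
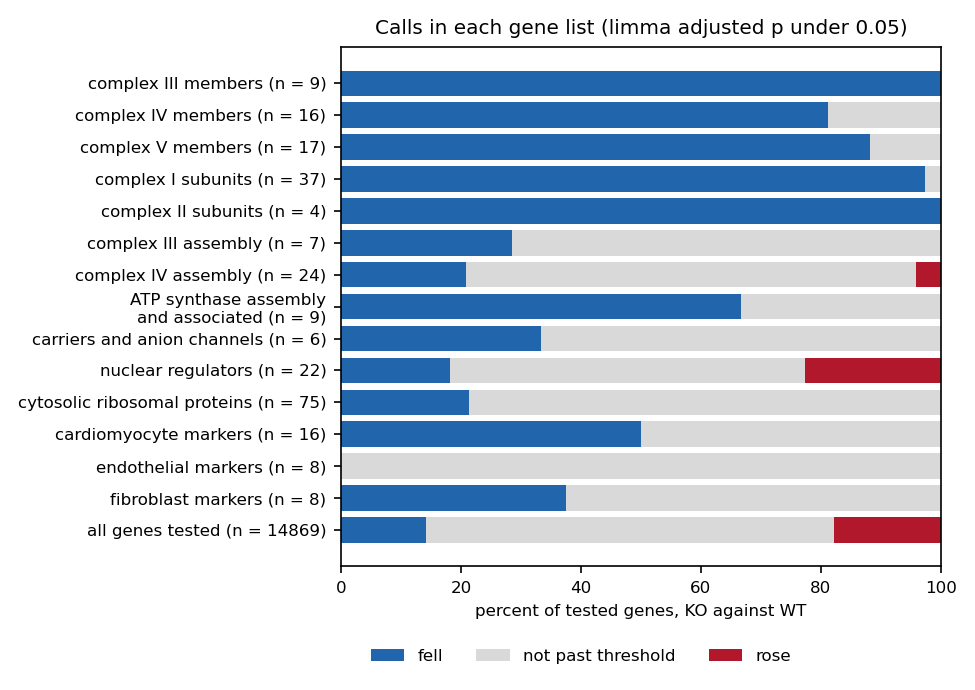
Percent of tested genes in each gene list that fell, did not pass the threshold or rose in KO hearts (limma adjusted p under 0.05), as stacked bars from 0 to 100%, with the number tested beside each name. The bars of complexes I to V are mostly filled by falls, against 14.2% over all genes tested, and regulators of mitochondrial genes hold both falls and rises.

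Markers of cardiomyocytes, the most mitochondria-rich cells of the heart, were lower in KO hearts as well. Of 16 such genes 8 fell (50.0%) and none rose, against 14.2% that fell and 17.8% that rose over all genes. All 16 values were negative at a median of -0.96. The sum was 27037 and 42881 CPM in KO hearts, against 69408 and 55686 CPM in WT hearts. All 16 markers were present in every library, as the heart label requires. In DESeq2 12 fell, against 10.5% of all genes, and under quantile normalization 3 fell, against 18.4% of all genes. The median was -0.56 without KO embryo 51, and the calls were lost without either WT library. Myl7, the atrial myosin light chain, had 260 and 443 CPM in KO hearts and 984 and 953 CPM in WT hearts (-1.51, limma adjusted p 0.0058). KO embryo 51 was below KO embryo 54 in all 16 of these genes, as in 41 of the 43 subunit genes. Between the WT hearts the lists differed, with embryo 47 below embryo 50 in 3 of 16 cardiomyocyte markers and in 32 of 43 subunit genes.

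Set against the cardiomyocyte sum, a ratio chosen after the values were seen, the 43 subunit genes were at 36.7% and 32.9% in KO hearts, against 32.9% and 41.8% in WT hearts. The groups overlapped. By complex this ratio was 5.81% and 5.05% in KO hearts against 5.31% and 6.79% in WT hearts for complex III, and 8.63% and 7.92% in KO hearts against 7.52% and 10.2% in WT hearts for complex IV. For complex V it was 21.6% and 19.3% in KO hearts, against 19.5% and 23.97% in WT hearts. The part of cardiomyocyte content in the falls of the subunit genes was not tested, and this ratio does not measure it.

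Markers of other cell types were read in the same way. None of 8 endothelial markers passed, none had an unadjusted p under 0.05 in limma, and edgeR and DESeq2 called none either. Their sum was 1281 and 1322 CPM in KO hearts, against 1272 and 1596 CPM in WT hearts. All 8 fibroblast markers had negative values at a median of -0.64, with both KO values below both WT values for each, and 3 passed the test. Of 7 smooth muscle markers 6 had negative values, the median was -0.56 and 3 fell. Macrophage markers rose in 4 of 8 and fell in 1, and the rises numbered 1 with upper-quartile scaling or no variance trend. Over all genes 14.2% fell and 17.8% rose, and these lists are too short for their shares to be read closely. Without KO embryo 51 the medians were -0.54 in fibroblast markers, -0.41 in smooth muscle markers and 0.46 in macrophage markers. In that fit macrophage markers passed in both directions. Without WT embryo 47 none of these 3 lists had a call, and without WT embryo 50 the lone call was 1 fibroblast marker that fell. Skeletal muscle markers fell in 1 and rose in 1 of 6, a brown fat marker rose among 4, and lung and airway markers fell in 2 of 2 but summed to 0.979 and 0.475 CPM in KO hearts and 6.90 and 8.99 CPM in WT hearts. Erythroid genes, markers of red blood cells, summed to 689 and 5163 CPM in KO hearts, against 5737 and 13189.8 CPM in WT hearts. None of 7 passed in limma, edgeR or DESeq2, 5 had an unadjusted p under 0.05 in limma, and all 7 fell without KO embryo 54. With mitochondrial and haemoglobin genes left out of each total, 39 subunit genes fell (13.6% of all genes).

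Counting could blur some members. On GRCm38, 17 of the 43 genes overlap another annotated gene, and 9 overlap a coding gene on the opposite strand. Among these are Cox6a2, which overlaps Itgad, and Atp5j, which overlaps Gabpa. Since the sources used here do not give the strand setting of the counting, reads of such partners cannot be told apart. Processed pseudogenes of several subunit genes exist in the mouse genome, so reads shared with near-identical copies also leave levels uncertain.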

How the data were processed

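Poly(A) RNA of 4 embryonic hearts, each a separately numbered embryo, was sequenced as directional paired 150 bp reads, per the labels' protocols. Groups follow the sample titles, since the genotype entry of the KO embryos names both wildtype and KO. The spread behind each p-value comes from 2 separate embryos per group where all libraries were kept. In the limma fit it was also drawn towards a variance trend over all tested genes. Tools named in the submitters' processing notes are fastp 0.20.0, STAR, edgeR 3.10 and DESeq, with GRCm38 as the build. How reads were counted, with which annotation and strand setting, the sources used here do not say. The authors' CPM values, in 1 table, are a signal scaled to effective library sizes, since columns sum to 935156 to 1034350. Per the file headers, the table also holds the authors' logFC and mean log2 CPM, an F statistic (a score of their test), a p-value and an FDR per gene. The deposited logFC was about 0.500 of the log2 ratio of group means over 2329 genes, and only its sign was used.

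Genes with at least 1 CPM in 2 libraries (14869) were compared on log2(CPM + 1), which understates changes of low genes, with limma-trend (limma 3.58.1, R 4.3.3), Benjamini-Hochberg adjustment and a threshold of 0.05. The fit was checked on data with known changes. All values (100%) were whole multiples of a read within 0.001, and the reads recovered this way entered edgeR 4.0.16 and DESeq2 1.42.0 as alternatives. Errors of CPM are SDs of 2 libraries, and errors of fold changes are limma standard errors. Other alternatives changed the pseudocount, filter, scaling, variance trend, transcript length and libraries used. GENCODE M21 matched 14916 identifiers and not 20, and 20 symbols stored as dates were restored. Transcript length is the median over a gene's basic coding transcripts. No column of sample values was left unused.

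Members and lists were chosen with earlier results of these data known. Named genes were Cyc1, Cycs, Cox7a2l, the isoform pairs, the 3 most negative and the most positive member of each complex, every member not past the threshold, and up to 4 genes with the smallest p of each related list. Cox5a, Cox6b2, Atp5a1, Gabpa and Esrra were added after their values were seen. The remaining members are given by their fold change.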

Additional observations from a re-analysis of the deposited data

How the results depend on the processing

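No paired analysis was possible because the embryo numbers (51, 54, 47 and 50) differ in every library. Calls were fewest when a WT library was left out, and the spread within groups in those fits comes from the KO hearts alone. These fits therefore do not show that the WT libraries were the weaker group. Leaving out 1 library at a time, genes that rose over all genes ranged from 534 to 2905 and genes that fell from 37 to 2750. Subunit genes that fell ranged from 0 to 40, complex III genes from 0 to 9, complex IV genes from 0 to 14 and complex V genes from 0 to 16, with a lone WT or KO library assumed to vary like the others. Of the 38 subunit genes that fell, 30 passed under all 12 alternatives that kept every library and 37 passed without either KO library. Counts of subunit genes that fell were 40 with upper-quartile scaling, 39 with TMM, 39 with quantile normalization, 31 without the variance trend, 37 with edgeR, 38 with DESeq2 and 32 with the length trend removed.

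Reversed values were few. Atp5b was at 0.14 with quantile normalization, and Cox6a2 was at 0.033 with the length trend removed and between -0.31 and 0.0073 with 1 library left out. Atp5s ranged from -0.59 to 0.010 with 1 library left out, the ratio of Cox4i2 to Cox4i1 from -0.48 to 0.66 and the ratio of Cox7a1 to Cox7a2 from -0.14 to 0.40. Cox8b passed with upper-quartile scaling (adjusted p 0.032), TMM (0.049), quantile normalization (0.044) and totals without mitochondrial and haemoglobin genes (0.043) in limma. Upper-quartile scaling shifted the split over all genes to 2253 rises and 2963 falls, and quantile normalization to 2188 rises and 2738 falls, against 2643 rises and 2107 falls in the analysis reported. The causes were not tested. At 7457103 to 8998872 reads per library, Cox6b2, Cox4i2 and Atp5s have the fewest reads of the 43 on average and the least counting precision.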
